A study of Mus musculus with 6 samples.

Results

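The suppressor of cytokine signalling (SOCS) family was examined as a set of 8 genes, taken by symbol from the gene count table: Socs1 to Socs7 and Cish. All 8 were among the 55335 genes of the table, each with a single row, and all 8 were among the 13901 genes that passed the filter on low counts and were tested. The cells were macrophages derived from mouse bone marrow in culture with 20 ng/mL of macrophage colony-stimulating factor, the growth factor that drives marrow precursors into this lineage. On day 5 every culture received medium conditioned by pancreatic acinar cells after injury (PAC-CM). The kinsenoside group (PAC-CM-KD, 3 libraries) received 400 µM of kinsenoside, a plant glycoside, together with that medium, and the PAC-CM group (3 libraries) received the medium without it. Strain, age and sex of the mice, and whether replicates were separate cultures or animals, are not given in the sources used here. The p-values therefore cover only the spread between libraries, which may be technical. Both groups received PAC-CM, so the comparison describes kinsenoside on top of the medium and holds no measurement of the medium itself.

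SOCS proteins are feedback inhibitors of cytokine receptors that signal through JAK kinases and STAT transcription factors. Activated STATs induce several SOCS genes. The proteins bind phosphorylated receptors or kinases through a central SH2 domain, and their C-terminal SOCS box recruits elongins and a cullin ubiquitin ligase. SOCS1 and SOCS3 in addition block the JAK kinase itself through a short inhibitory region, and in macrophages they restrain interferon-gamma, interleukin-6 and Toll-like receptor responses.

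Total counts were between 41125059 and 43434292 in the kinsenoside libraries and between 43054066 and 47461702 in the PAC-CM libraries. All 11 identifiers of 10 macrophage markers averaged over 1 CPM (a count divided by its library total and scaled to a fixed depth), with means between 91.6 CPM and 12591 CPM. Summed levels of the other cell type marker lists overlapped between the groups, except erythroid and megakaryocyte markers, at 42.6 to 78.7 CPM with kinsenoside and 25.1 to 39.8 CPM in PAC-CM, of which Pf4 and Itga2b were the members over 1 CPM and none was called. The neutrophil marker Elane, the T cell marker Cd3d and the acinar factor Ptf1a were at 0 in all libraries, but other members of those lists were present. Of the neutrophil list S100a8 averaged 35.6 CPM, of the T and NK cell list Cd4 averaged 9.79 CPM, of the acinar list Cela1 averaged 2.67 CPM, and the endothelial markers Cdh5, Pecam1 and Kdr were over 1 CPM, the highest at 62.7 CPM. The part of other cell types in the results was not tested. Kinsenoside replicate 1 stood apart from the other libraries. On the first principal component of log2 CPM, with 28.8% of the variance, it lay at 4.29, between the groups. The other kinsenoside libraries lay at 24.1 and 30.7 there, and the PAC-CM libraries between -25.7 and -11.9. On the second component, with 23.6% of the variance, kinsenoside replicate 1 lay at 39.3 and the other libraries between -19.7 and 6.13. Without it 98 genes were called, against 71 with it.

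The transcript level of 1 of the 8 SOCS family genes differed between kinsenoside and PAC-CM macrophages. Socs6 rose 2.998-fold (95% interval 2.50 to 3.601), and per length it stood in the middle of the family with kinsenoside, against the last place in PAC-CM macrophages. The 2 most abundant members, Socs3 and Socs1, were lower in every kinsenoside library than in every PAC-CM library, but neither passed the test over all genes. In CPM 15.7% of all tested genes held such a position. Cish was higher on average, again without passing, and Socs2, Socs4, Socs5 and Socs7 had overlapping groups. The test was the quasi-likelihood test of edgeR, with p-values adjusted by Benjamini and Hochberg's method over all 13901 genes and a threshold of 0.05. In it 0.511% of all genes were called, 0.209% higher and 0.302% lower with kinsenoside. In bulk RNA, a change in the number of cells that express a gene and a change in RNA per cell cannot be told apart.

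**Figure D1:**
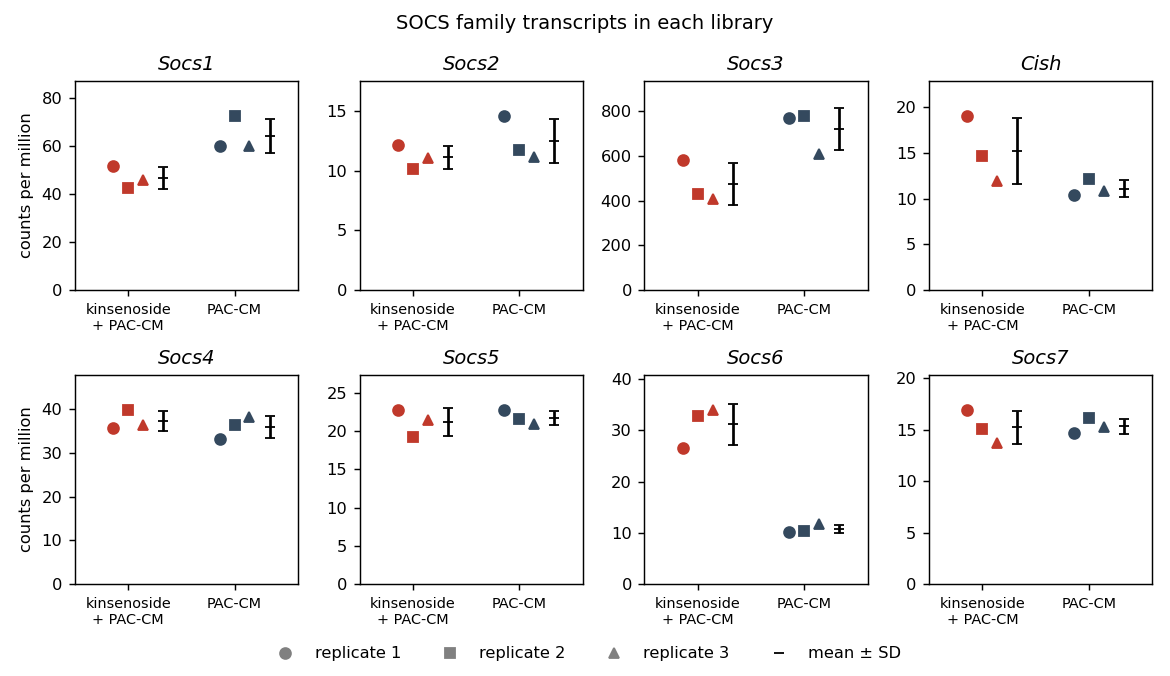
Level of each SOCS family gene in CPM (vertical axis, from 0) in the 3 kinsenoside libraries (red, left) and the 3 PAC-CM libraries (dark, right), with the replicate shown by the marker and the mean ± SD beside each group. Socs6 lies between 26.6 and 34.1 CPM with kinsenoside and between 10.2 and 11.7 CPM in PAC-CM.

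Socs6 encodes a member with a long N-terminal region that is best known for binding insulin receptor substrates and the receptor tyrosine kinases KIT and FLT3, and less for inhibiting JAKs. The gene (ENSMUSG00000056153) lies on the minus strand of chromosome 18, from 88665224 to 88927481 (GRCm38). Its raw counts were 1154, 1388 and 1401 in kinsenoside replicates 1 to 3, against 438, 491 and 514 in PAC-CM replicates 1 to 3. Scaled to the library totals these were 26.6, 32.9 and 34.1 CPM with kinsenoside and 10.2, 10.3 and 11.7 CPM in PAC-CM. The groups were far apart: the lowest kinsenoside library was 2.28 times the highest PAC-CM library, while the libraries within a group differed by at most 1.28-fold with kinsenoside and 1.15-fold in PAC-CM. The mean was 31.2 ± 4.03 CPM with kinsenoside and 10.7 ± 0.809 CPM in PAC-CM (SD, n = 3 each). The edgeR log2 fold change was 1.58 (SE 0.116, adjusted p = 0.00129). By p-value Socs6 stood at rank 5 of the 13901 tested genes, and by fold change at rank 5 of the 9155 tested genes that averaged at least 5 CPM.

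The Socs6 call did not rest on a single library. It passed under all 15 alternatives of tool, scaling, filter, block and left-out library, with log2 fold changes between 1.51 and 1.69 and adjusted p between 8.04e-28 and 0.0144. Without kinsenoside replicate 1, which had the lowest Socs6 level of its group, the log2 fold change was 1.69 (adjusted p = 0.00037 by edgeR).

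Gene models that could share reads with Socs6 were listed at its locus and by sequence. The 3 annotated genes inside the Socs6 span are processed pseudogenes that share 0 exon bases with it, and each was at 0 counts in all 6 libraries. Of the 31-base words in Socs6 transcripts, 7.38% also occur in transcripts of other genes, mostly in the processed pseudogene Gm9449 on chromosome 7. Gm9449 had 28, 27 and 33 counts with kinsenoside and 27, 24 and 27 counts in PAC-CM, and so held few reads in both groups. Low counts of these pseudogenes cannot show whether their reads were counted for Socs6, because such reads would be missing from their own counts. Among 9744 genes with a highest count of at least 200, 31 had CPM values on a pair of levels at least 2-fold apart. Each level held at least 2 libraries, within 1.3-fold of each other, so genes with a single library apart are not among the 31. Socs6, Arl2bp and Hist2h2aa1 were the 3 whose levels followed the treatment, and the levels of the other 28 divided the libraries in another way. Arl2bp had 597, 652 and 622 counts in kinsenoside replicates 1 to 3, against 198, 246 and 234 in PAC-CM replicates 1 to 3. Hist2h2aa1 had 717, 657 and 641 counts with kinsenoside and 0 in every PAC-CM library. How reads were assigned among transcript models, and its part in the Socs6 counts, was not tested.

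The genes whose profile over the 6 libraries was most like that of Socs6, among 9155 candidates averaging at least 5 CPM, were Sowahc, Kidins220 and Cd84. Their Pearson coefficients with Socs6, on log2 CPM and given as a description, were 0.9992, 0.9987 and 0.9972, and they rest mainly on the difference between the groups that all of them share. Size differed among them. Kidins220, which encodes a scaffold protein of neurotrophin receptors, had 126, 145 and 142 CPM with kinsenoside against 62.0, 63.1 and 70.6 CPM in PAC-CM (log2 fold change 1.12, adjusted p = 0.00129 by edgeR). Sowahc, with a log2 fold change of 0.25 (adjusted p = 0.147), and Cd84, a leukocyte surface receptor, with 0.27 (adjusted p = 0.0866), did not pass.

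RefSeq promoter windows (GRCm38.p6, 250 bases before to 50 after a gene's start) were matched by symbol for 4 of the 8 members, Cish, Socs1, Socs3 and Socs4. They were searched on both strands for TTCNNNGAA, the core of a STAT dimer site, and for GAAANNGAA, a repeat bound by interferon regulatory factors. The windows of Cish (chr9:107296409-107296708, plus strand), Socs3 (chr11:117969317-117969616, minus strand) and Socs1 (chr16:10785487-10785786, minus strand) are shown because these are the cytokine-induced members with shifted estimates, and capitals mark the matches:
Cish: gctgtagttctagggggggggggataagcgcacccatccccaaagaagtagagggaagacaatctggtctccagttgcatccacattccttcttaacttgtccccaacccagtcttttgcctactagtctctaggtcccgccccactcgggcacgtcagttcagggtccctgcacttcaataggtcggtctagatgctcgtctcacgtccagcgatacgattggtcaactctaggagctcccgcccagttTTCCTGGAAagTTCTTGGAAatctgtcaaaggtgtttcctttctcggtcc
Socs3: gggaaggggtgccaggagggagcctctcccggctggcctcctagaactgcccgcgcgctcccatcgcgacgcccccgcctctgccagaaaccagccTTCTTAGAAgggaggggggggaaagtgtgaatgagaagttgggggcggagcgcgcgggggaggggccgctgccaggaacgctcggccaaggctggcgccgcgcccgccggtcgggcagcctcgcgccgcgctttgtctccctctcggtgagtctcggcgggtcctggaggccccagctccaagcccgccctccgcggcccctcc
Socs1: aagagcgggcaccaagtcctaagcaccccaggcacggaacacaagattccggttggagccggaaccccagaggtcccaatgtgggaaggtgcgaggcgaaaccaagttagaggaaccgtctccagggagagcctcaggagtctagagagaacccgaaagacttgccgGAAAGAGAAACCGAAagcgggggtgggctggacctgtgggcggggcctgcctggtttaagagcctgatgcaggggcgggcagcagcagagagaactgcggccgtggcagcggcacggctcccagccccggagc
The Cish window holds a pair of STAT matches, at bases 251 to 259 and 262 to 270, counted from its 5′ end. The Socs3 window holds 1 STAT match, at bases 97 to 105. The Socs1 window holds no STAT match, but 2 interferon regulatory factor matches that overlap each other, at bases 168 to 176 and 174 to 182. The Socs4 window (chr14:47276670-47276969) holds neither motif. Of all 32851 promoter windows of this length, 8.3% hold the STAT motif and 8.56% the interferon regulatory factor motif. The Cish estimate lay above 0 and that of Socs3 below 0, but neither passed (adjusted p = 0.221 and 0.185 by edgeR). A match is a description of the letters in the window, and its part in the estimates was not tested.

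Socs3, the inhibitor that binds the shared interleukin-6 receptor chain gp130, was the most abundant member. The gene (ENSMUSG00000053113) lies on the minus strand of chromosome 11, from 117966079 to 117970047. Its promoter window holds the single STAT match shown. The window was set from the RefSeq start and lies wholly inside this gene span, which came from another annotation. Socs3 had 580, 430 and 406 CPM in kinsenoside replicates 1 to 3, against 769, 778 and 609 CPM in PAC-CM replicates 1 to 3. Every kinsenoside library lay below every PAC-CM library, but kinsenoside replicate 1 came close to PAC-CM replicate 3. The mean was 472 ± 94.0 CPM with kinsenoside and 719 ± 95.1 CPM in PAC-CM (SD, n = 3 each). The estimated fold was 0.677 (95% interval 0.522 to 0.879), a log2 fold change of -0.56 (SE 0.158, unadjusted p = 0.00965, adjusted p = 0.185 by edgeR), so Socs3 did not pass over all genes. Without kinsenoside replicate 1 the log2 fold change was -0.74 and Socs3 passed (adjusted p = 0.0405 by edgeR). DESeq2 also called it (log2 fold change -0.55, adjusted p = 0.0136), in a test that called 3.6% of the genes to which it gave an adjusted p. Over all 15 alternatives its adjusted p was between 0.0136 and 0.428.

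Socs1 is the main brake on interferon-gamma signalling. The gene (ENSMUSG00000038037) lies on the minus strand of chromosome 16, from 10782240 to 10785536. Its window is the one with the interferon regulatory factor matches. It had 51.9, 42.7 and 45.9 CPM in kinsenoside replicates 1 to 3, against 60.2, 72.6 and 60.0 CPM in PAC-CM replicates 1 to 3. Again all 3 kinsenoside libraries lay below all 3 PAC-CM libraries. The mean was 46.8 ± 4.65 CPM with kinsenoside and 64.3 ± 7.21 CPM in PAC-CM (SD, n = 3 each), an estimated fold of 0.751 (95% interval 0.637 to 0.886). The log2 fold change of -0.41 (SE 0.104, unadjusted p = 0.00374) had an adjusted p of 0.129 by edgeR and did not pass. Of the 15 alternatives, DESeq2 alone called it (log2 fold change -0.41, adjusted p = 0.0318), and the range over them was 0.0318 to 0.354. Socs1 and Socs3 were thus 2 of 8 members whose kinsenoside libraries all lay below PAC-CM, a position that 15.7% of all tested genes held. Socs6 was 1 of 8 with all kinsenoside libraries above, where the share of all tested genes was 6.86%. Both shares are for CPM scaled to library totals alone. With that scaling the median log2 fold change over all genes was -0.050, against -0.0056 in the reported fit.

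Cish encodes CIS, a STAT5-induced inhibitor that competes for STAT5 docking sites on cytokine receptors. The gene (ENSMUSG00000032578) lies on the plus strand of chromosome 9, from 107296026 to 107302784. Of the STAT matches of its window, the first begins on its RefSeq start and the other lies past it. The window lies wholly inside the gene span given here, which came from another annotation with an earlier start. Cish had 19.04, 14.7 and 11.9 CPM in kinsenoside replicates 1 to 3, against 10.4, 12.1 and 10.8 CPM in PAC-CM replicates 1 to 3. Kinsenoside replicate 1 was the high library, and kinsenoside replicate 3 fell inside the PAC-CM range. After scaling by the TMM factors (edgeR's trimmed mean of M-values) the groups no longer overlapped, so their separation depends on the scaling. The mean was 15.2 ± 3.59 CPM with kinsenoside and 11.1 ± 0.881 CPM in PAC-CM (SD, n = 3 each). The log2 fold change was 0.50 (SE 0.164, 95% interval 0.12 to 0.87, unadjusted p = 0.0157, adjusted p = 0.221 by edgeR). Without kinsenoside replicate 1 it was 0.30 (adjusted p = 0.299 by edgeR). Cish did not pass under any of the 15 alternatives, where its adjusted p was between 0.0958 and 0.486. The opposite-strand genes Gm17040 and Gm17041, which overlap Cish exons, had at most 2 counts in any library.

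An unadjusted edgeR p under 0.05 was found for 4 of the 8 members (Socs6, Socs1, Socs3 and Cish), against 14.9% of all tested genes. Of these 4, Socs6 passed after adjustment. The other 4 members had intervals that include no change.

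**Figure D2:**
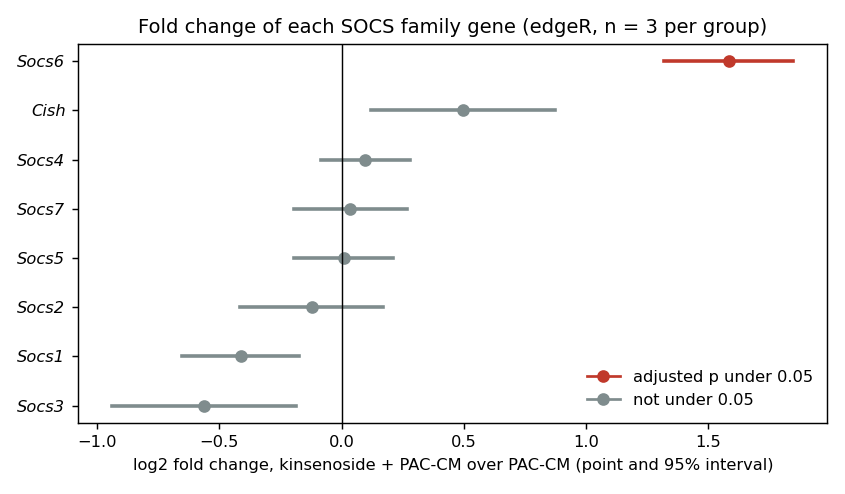
Log2 fold change of each SOCS family gene, kinsenoside + PAC-CM over PAC-CM (horizontal axis), as the edgeR estimate with its 95% interval, n = 3 libraries per group. Socs6, at 1.58, is the member with an adjusted p under 0.05 (red), and the intervals of Socs3, Socs1 and Cish also exclude 0 before adjustment.

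Socs2, which limits growth hormone signalling and is closest to Cish within the family, had between 10.2 and 12.2 CPM with kinsenoside and between 11.2 and 14.6 CPM in PAC-CM, and the groups overlapped. Its log2 fold change was -0.12 (95% interval -0.41 to 0.17, adjusted p = 0.713 by edgeR), and -0.19 without kinsenoside replicate 1 (adjusted p = 0.547 by edgeR). The gene (ENSMUSG00000020027) lies on chromosome 10, from 95385362 to 95417180 on the minus strand. Of its 31-base words 6.55% are shared with other genes, most of them with the pseudogene Gm9847, which had at most 6 counts in any library.

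Socs4 and Socs5 form a pair with long N-terminal regions and are known for promoting loss of the epidermal growth factor receptor. Socs4 (ENSMUSG00000048379, chromosome 14, 47276931 to 47296102, plus strand) had between 35.7 and 40.0 CPM with kinsenoside and between 33.2 and 38.2 CPM in PAC-CM. Its fold was 1.07 (95% interval 0.943 to 1.21, adjusted p = 0.625 by edgeR). Socs5 (ENSMUSG00000037104, chromosome 17, 87107679 to 87137839, plus strand) had between 19.3 and 22.8 CPM with kinsenoside and between 20.99 and 22.7 CPM in PAC-CM. The groups of both genes overlapped. The fold of Socs5 was 1.01 (95% interval 0.874 to 1.158, adjusted p = 0.980 by edgeR), so a change of the size seen for Socs6 lies outside the intervals of both genes. Without kinsenoside replicate 1 the log2 fold change of Socs5 was -0.05, against 0.01 with it.

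Socs7, the closest relative of Socs6, binds insulin receptor substrates and cytoskeletal adaptors. It (ENSMUSG00000038485) lies on the plus strand of chromosome 11, from 97362551 to 97398542. It had 16.9, 15.1 and 13.7 CPM in kinsenoside replicates 1 to 3, against 14.6, 16.1 and 15.3 CPM in PAC-CM replicates 1 to 3. The kinsenoside values lay on both sides of the PAC-CM values. Its fold was 1.03 (95% interval 0.873 to 1.204, adjusted p = 0.913 by edgeR), an interval that ends below the lower bound of 2.50 for Socs6. Without kinsenoside replicate 1 its log2 fold change was -0.05, against 0.04 with it.

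Levels within the family spanned a wide range. Per kilobase of the longest annotated transcript, Socs3 stood at 185 ± 36.8 CPM per kb with kinsenoside and 282 ± 37.3 CPM per kb in PAC-CM (SD, n = 3 each). Socs1 came next, at 16.1 ± 1.598 CPM per kb with kinsenoside and 22.1 ± 2.48 CPM per kb in PAC-CM. All other members were under 6 CPM per kb in every library. In PAC-CM the descending order went on with Socs4, Socs5, Socs2, Cish, Socs7 and Socs6, where the ranges of Socs4 and Socs5 overlapped, as did those of Cish and Socs7. Socs6 was last, at 1.78 ± 0.134 CPM per kb, below every library of the other members. With kinsenoside it stood at 5.16 ± 0.668 CPM per kb, in place 4, where its range overlapped those of Socs4 and Socs5. The level with kinsenoside depends on the length used. Per kilobase of all annotated exons joined, Socs6 stood at 2.75 ± 0.355 CPM per kb with kinsenoside and 0.945 ± 0.0712 CPM per kb in PAC-CM, in place 5 and again in last place. With kinsenoside its range then overlapped that of Cish, at 2.37 ± 0.560 CPM per kb, and lay below those of Socs5, at 3.31 ± 0.278 CPM per kb, and Socs4, at 5.43 ± 0.332 CPM per kb.

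**Figure D3:**
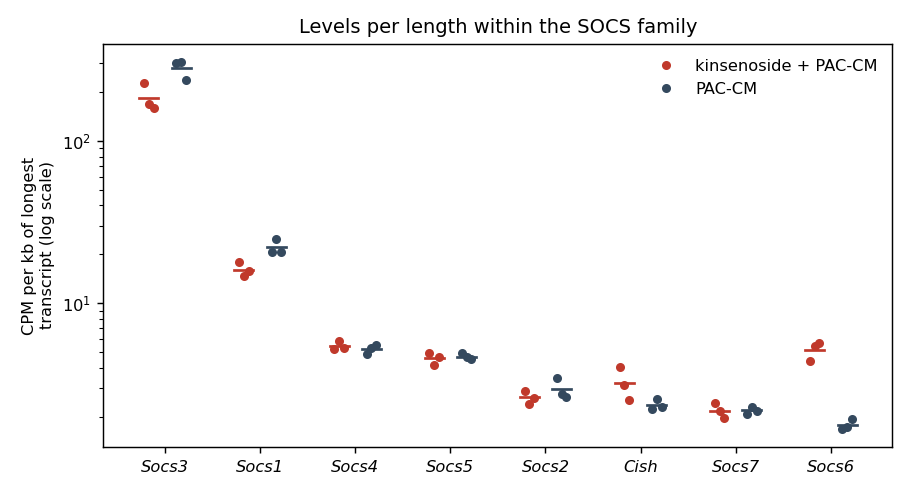
Level of each SOCS family gene per kilobase of its longest transcript (vertical axis, CPM per kb, log scale) in the kinsenoside libraries (red, left) and the PAC-CM libraries (dark, right), with a line at each group's mean. Genes are ordered by their PAC-CM level, and by this length Socs6 overlaps Socs4 and Socs5 with kinsenoside, against the last place in PAC-CM. Per kilobase of all joined exons it lay below both with kinsenoside.

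Of all reads counted for the family, Socs3 held 75.8%, 71.1% and 69.9% in kinsenoside replicates 1 to 3, against 82.2%, 81.1% and 78.4% in PAC-CM replicates 1 to 3. The share of Socs6 was 3.47%, 5.44% and 5.87% with kinsenoside, against 1.09%, 1.08% and 1.4996% in PAC-CM. Neither share overlapped between the groups, but nor did those of Cish, Socs2, Socs5 and Socs7, and those of Socs1 and Socs4 did. The share of Socs7, whose own fold was 1.03, was 2.22%, 2.49% and 2.37% with kinsenoside, against 1.57%, 1.68% and 1.96% in PAC-CM. Separate shares were thus not particular to Socs3 and Socs6. The widest 95% Wilson interval among the kinsenoside shares of Socs6 ran from 5.57% to 6.17%, and these intervals cover counting error only. A share within the family moves when any member moves, so the lower Socs3 share and the higher Socs6 share are not separate observations.

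The estimates of 4 members, those with an unadjusted p under 0.05, were compared across processing choices. The direction of Socs6, Cish, Socs1 and Socs3 was the same under all 15 alternatives. These reuse the same libraries, and the 4 members were picked by p, so a stable direction was likely from the start. Of the members not picked, Socs5 changed sign in 5 alternatives, Socs7 in 2, Socs2 in 1 and Socs4 in 0.

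**Figure D4:**
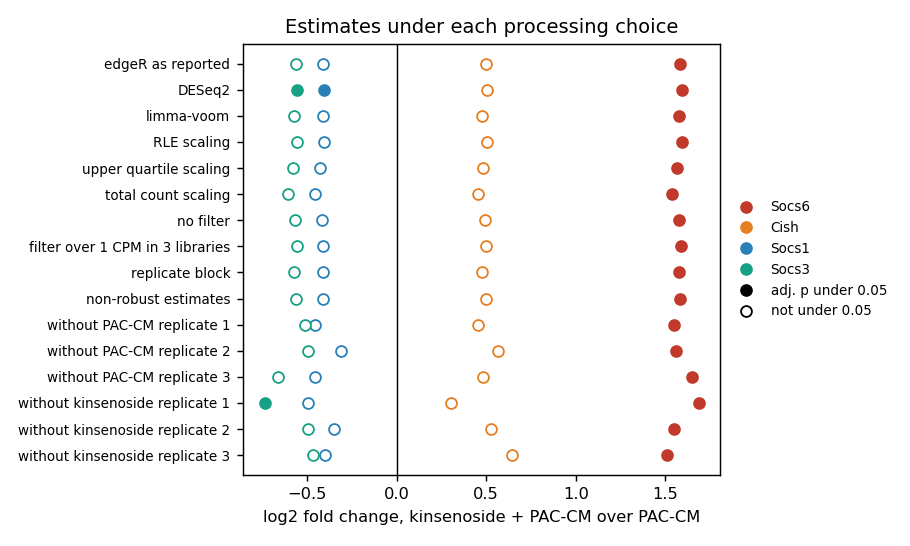
Log2 fold change, kinsenoside + PAC-CM over PAC-CM (horizontal axis), of 4 SOCS family genes under the reported edgeR fit and each of 15 alternatives (rows), with filled points where the adjusted p is under 0.05. Socs6 is filled in every row, Socs3 with DESeq2 and without kinsenoside replicate 1, Socs1 with DESeq2, and Cish in none.

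The genes around the SOCS family in the JAK and STAT pathway were described from 10 lists, by the number of members that passed over all genes and by the list's median log2 fold change, beside a median of -0.01 over all tested genes. Among cytokine ligands, 0 of 15 tested members passed (median 0.00), and among cytokine receptors 0 of 26 (median -0.03). The most abundant receptor gene, Il4ra, was at 1098 ± 140.0 CPM with kinsenoside and 1031 ± 94.7 CPM in PAC-CM (adjusted p = 0.619 by edgeR). Of the 11 JAK kinases and STAT factors none passed in either direction, with a median of -0.05. Stat2, which carries type I interferon signals, was at 403 ± 6.92 CPM with kinsenoside and 406 ± 14.5 CPM in PAC-CM, and the groups overlapped (adjusted p = 0.848 by edgeR). At an unadjusted edgeR p under 0.05 these lists held 6 of 15 ligands, 4 of 26 receptors and 3 of the 11 JAK or STAT genes, against 14.9% of all tested genes, and limma-voom called none of them. DESeq2 called 2 ligands (Il7 and Il10), 1 receptor (Il6st, which encodes gp130) and 2 kinases (Jak2 and Tyk2). The edgeR log2 fold change of Jak2 was -0.39 (adjusted p = 0.0623) and that of Tyk2 was -0.28 (adjusted p = 0.128).

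The partners that SOCS proteins need for ubiquitination also held no call, with 0 of 9 tested (median 0.13). Elob, which encodes elongin B, had a log2 fold change of 0.35 (adjusted p = 0.236 by edgeR). Among 9155 candidates it was the gene whose profile was most like that of Cish (Pearson coefficient 0.993, as a description). Both genes were highest in kinsenoside replicate 1, with Elob at 64.6 CPM and Cish at 19.04 CPM, and a link between them was not tested. Of 14 other brakes on JAK and STAT signalling, such as phosphatases and PIAS proteins, none passed (median 0.05). The most abundant among them was Usp18, an inhibitor at the type I interferon receptor, with a log2 fold change of -0.15 (adjusted p = 0.321 by edgeR). None of the 15 tested genes for other SOCS box proteins passed (median -0.02), and Wsb1, the second most abundant of them, had 0.24 (adjusted p = 0.173 by edgeR). Within the SOCS box proteins of both lists, Socs6 was therefore the single call by edgeR and by limma-voom. At an unadjusted edgeR p under 0.05 there were 4 of 9 ligase partners, 2 of 14 other brakes and 4 of 15 other SOCS box genes, beside the same 14.9% of all tested genes, of which DESeq2 called Spsb1 and Asb13 in the last list and none in the others.

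Among the lists described, the calls were a STAT6 target and a kinase. Of 12 STAT3 targets (median 0.03) and 9 tested STAT5 targets (median 0.05) none passed, with 2 and 3 members at an unadjusted edgeR p under 0.05, no call by limma-voom, and Ccnd2 of the STAT5 list called by DESeq2. Of 9 tested STAT6 targets 1 rose, the mannose receptor gene Mrc1, at 143 ± 14.8 CPM with kinsenoside and 93.7 ± 5.84 CPM in PAC-CM (log2 fold change 0.66, adjusted p = 0.0316 by edgeR). That list held 12 genes, and the members removed by the filter on low counts have no estimate. All 9 estimates lay above 0, with a median of 0.48, against 48.9% of all tested genes above 0. In 2 of the 9 every kinsenoside library lay above every PAC-CM library. The largest estimate, 0.82 for Cdh1, came from a gene averaging 0.83 CPM with kinsenoside and 0.48 CPM in PAC-CM. Ccl17 and Chil3 were also low, at 1.09 and 1.62 CPM with kinsenoside and 0.94 and 1.38 CPM in PAC-CM. Tgm2 and Il4ra had the smallest estimates, 0.04 and 0.14. All members share the same libraries, so their signs are not separate observations, and a shift of the list was not tested. Signs were uneven in other lists too: 8 of 9 ligase partners and 9 of 12 STAT3 targets lay above 0. Of the 11 JAK kinases and STAT factors, 8 lay below 0. At an unadjusted edgeR p under 0.05 the STAT6 list held 3 members, DESeq2 called Mrc1 and Arg1, and limma-voom called none. Among 14 tested genes for other proteins that SOCS proteins bind or degrade, 1 fell, the stress kinase gene Map3k5, at 8.87 ± 1.34 CPM with kinsenoside and 16.01 ± 1.13 CPM in PAC-CM (log2 fold change -0.81, adjusted p = 0.0412 by edgeR). Mrc1 and Map3k5 each passed in 8 of the 15 alternatives, with adjusted p up to 0.127 and 0.161. Both calls were lost when any PAC-CM library or kinsenoside replicate 3 was left out, and that of Map3k5 also without kinsenoside replicate 2.

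**Figure D5:**
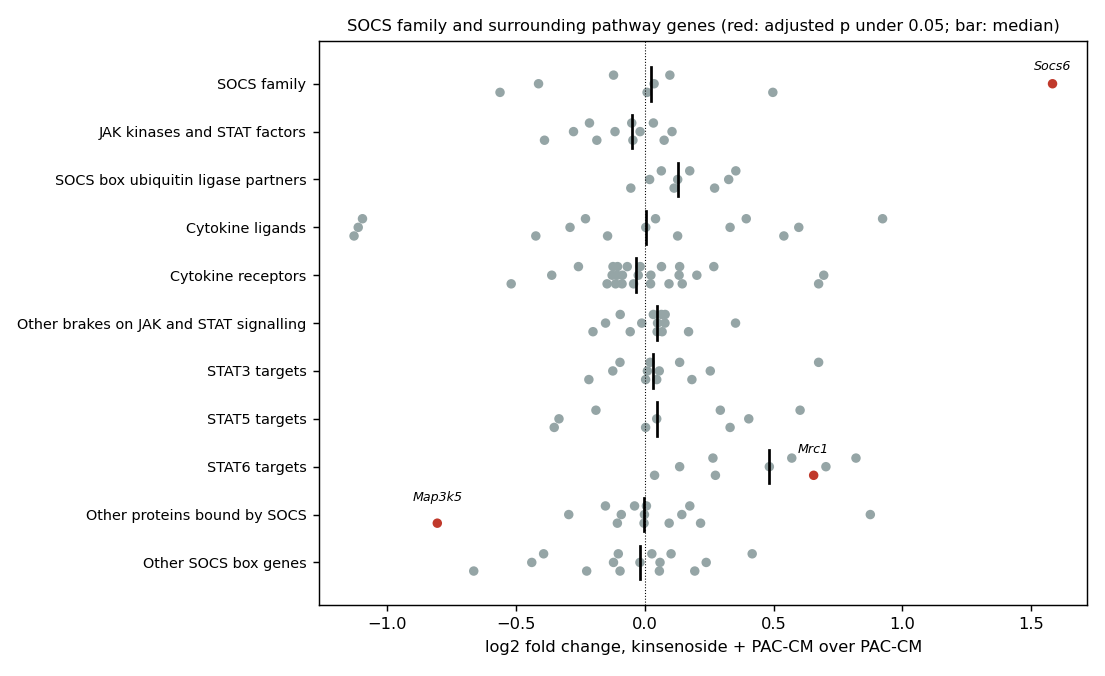
Log2 fold change, kinsenoside + PAC-CM over PAC-CM (horizontal axis), of each tested gene in the SOCS family and in 10 lists of surrounding pathway genes (rows), with calls at an adjusted p under 0.05 in red and named, and a bar at each list's median. Socs6 lies at 1.58, to the right of every other gene shown.

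The genes most like the other members in profile over the 6 libraries, again as a description, were Plekhg2 for Socs1, Ptgs2 for Socs2, Vars for Socs3, H3f3a for Socs4, Mrps31 for Socs5 and Ppp2r3d for Socs7, with Pearson coefficients between 0.983 and 0.9996.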

How the data were processed

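RNA was sequenced from 3 kinsenoside (PAC-CM-KD) and 3 PAC-CM macrophage libraries. Per the labels' protocols, RNA was extracted with Trizol, enriched for mRNA and sequenced from both fragment ends over 150 nucleotides. The deposited table holds whole-number counts per Ensembl gene, as the authors made them. GRCm38 is the build in the submitters' processing notes, which also list STAR, DESeq2 1.16.1, StringTie 1.3.1c, FastQC 0.11.2 and bcl2fastq 2.20 and do not say which one counted, or whether by strand. A counter that assembles transcripts can pass reads between overlapping models.

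The counts were used as deposited. edgeR 4.0.16 (R 4.3.3, limma 3.58.1) was run over all genes: filterByExpr, TMM scaling, robust quasi-likelihood fits on the group alone, and a two-sided test adjusted by Benjamini and Hochberg's method at 0.05. Each standard error is the absolute log2 fold change over the square root of F. Log2 CPM used a prior count of 2. Coordinates, lengths and overlaps came from GENCODE M21 (GRCm38), which holds 55154 of the 55335 identifiers. On counts simulated for the kinsenoside comparison (13901 genes), the test found 28 of 67 genes with a true fold of 1.5, 50 of 67 with a fold of 2 and 55 of 66 with a fold of 4.

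The members and lists were chosen with earlier results of these data known. Named genes are the members, up to 4 called genes per list by smallest p (or the 2 of highest mean CPM), overlapping genes, and the genes of most similar profile. One pathway list, which holds 2 of the 4 pathway calls, and some single genes are not reported here. Arl2bp, Hist2h2aa1, the pseudogenes, the genes called by DESeq2 alone and the overlapping genes with few counts were named after their values were seen. So were Cdh1, Ccl17, Chil3 and Tgm2 of the STAT6 list. Alternatives were DESeq2 1.42.0, limma-voom, 3 scalings, 2 filters, the replicate block, non-robust estimates and leaving out each library.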

Additional observations from a re-analysis of the deposited data

How the results depend on the processing

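The Socs6 call held under all 15 alternatives. The number of SOCS family genes called was 1 in the reported fit, 3 with DESeq2 (Socs1, Socs3 and Socs6), and 1 to 2 with 1 library left out, the 2 being Socs3 and Socs6 without kinsenoside replicate 1. Over all genes, the 71 calls became 490 with DESeq2, 39 with limma-voom, 42 with the replicate block, 36 with non-robust estimates, and 13 to 98 with 1 library left out. These were 98 without kinsenoside replicate 1, 13 without PAC-CM replicate 1, 26 and 14 without PAC-CM replicates 2 and 3, and 20 and 37 without kinsenoside replicates 2 and 3. Total count scaling gave 25 higher and 63 lower calls, against 29 and 42 as reported. The 4 calls over all pathway lists became 15 with DESeq2, 2 with limma-voom, 2 with non-robust estimates, 7 with total count scaling, 7 with no filter, and 2 to 5 with 1 library left out. Estimates near 0 changed sign: that of Socs5 was -0.0094 with upper quartile scaling and -0.036 with total count scaling, and that of Socs7 was -0.0079 with total count scaling. With 1 library left out, Socs2 lay between -0.19 and 0.0047, Socs5 between -0.047 and 0.077 and Socs7 between -0.047 and 0.10. The cause of these shifts was not tested.

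Deviations from the group means correlated at 0.00874, -0.101 and 0.135 for libraries with the same replicate number in their titles. For libraries with different numbers the coefficients ran from -0.173 to 0.164, so same-numbered libraries were no more alike. These coefficients cannot decide whether same-numbered libraries were paired, because a weak pairing effect could also give values this small. With the replicate number as a block the log2 fold change of Socs6 was 1.58, and the adjusted p of Socs3 and Socs1 was 0.0848 and 0.197.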
